A study of Danio rerio with 12 samples.

Results

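The gene described here is postnb, a zebrafish periostin gene (Entrez identifier 337176), 1 of the 8793 genes measured on 12 Affymetrix Zebrafish Genome Arrays. It was chosen by its levels and its responses to amputation on these same arrays. Of the 15502 probe sets analysed, 2 are assigned to postnb alone by the platform annotation, and both are described, as the brighter and the dimmer after their mean values. Each array carried total RNA from whole hearts of adult, sexually mature fish, with 3 arrays in each of 4 groups. WT hearts came from the AB line and were unamputated or were taken 7 days after amputation. The dnHIF1a hearts, unamputated or 7 days after amputation as well, came from a transgenic line with 3 constructs, each under the heart muscle promoter cmlc2a. Their names are cmlc2a:Ert2-Cre-Ert2, a tamoxifen-dependent Cre recombinase, cmlc2a:LnL:GFP, a fluorescent reporter, and cmlc2a:LrL:dnHIF1a, a dominant negative form of the hypoxia factor subunit HIF1a. The sample titles describe these fish as dnHIF1a-expressing. The labels do not say whether tamoxifen was given, what the background of the transgenic line is, or whether the arrays of a group came from separate animals or from pools. The p-values below therefore measure the spread between these samples, and a genotype difference is a difference between these lines.

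Periostin is a secreted matrix protein built around fasciclin domains. It binds collagen and fibronectin, helps collagen fibrils assemble and crosslink, and signals to cells through integrins. In the injured mammalian heart it marks activated fibroblasts, and in mammals its transcription responds to TGF-beta. In zebrafish, postnb is known as a marker of fibroblasts and epicardium-derived cells around a heart wound.

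All values are log2 expression values after RMA, the normalization that made the arrays comparable, so a difference of 1 is a 2-fold difference. Array medians lay between 5.55 and 5.59. The heart muscle gene myl7 read 14.58 to 14.80 on every array, close to the array maxima of 14.86 to 15.04. Over probe sets, Pearson's r was 0.992 to 0.996 within groups and 0.976 to 0.99 across them.

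The level of postnb was lowest in unamputated WT hearts and highest in amputated WT hearts, with both dnHIF1a groups in between. On the brighter probe set the unamputated WT arrays read 7.10, 7.46 and 6.45 (mean 7.00 ± 0.51 SD, n = 3). The unamputated dnHIF1a arrays read 8.85, 9.27 and 8.62 (8.91 ± 0.33). All 3 thus lay above every unamputated WT array, by at least 1.16. After amputation the dnHIF1a arrays read 10.54, 10.91 and 10.76 (10.74 ± 0.19). The amputated WT arrays read 11.31, 11.25 and 11.71 (11.42 ± 0.25). The amputated dnHIF1a arrays stood at least 1.27 above the unamputated ones and at least 0.34 below the amputated WT arrays, so none of the 4 groups overlapped.

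The dimmer probe set gave the same order. Its values were 5.82, 6.40 and 5.63 in unamputated WT (5.95 ± 0.40 SD, n = 3) and 7.09, 7.74 and 6.94 in unamputated dnHIF1a hearts (7.26 ± 0.43). They were 8.92, 9.34 and 9.01 in amputated dnHIF1a (9.09 ± 0.22) and 9.76, 9.61 and 10.16 in amputated WT hearts (9.84 ± 0.28). Between neighbouring groups in this order the smallest distances between arrays were 0.54, 1.18 and 0.27. The narrowest step on both probe sets was that between the amputated groups, where the distance between the nearest arrays was of the size of the SD within a group.

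**Figure D1:**
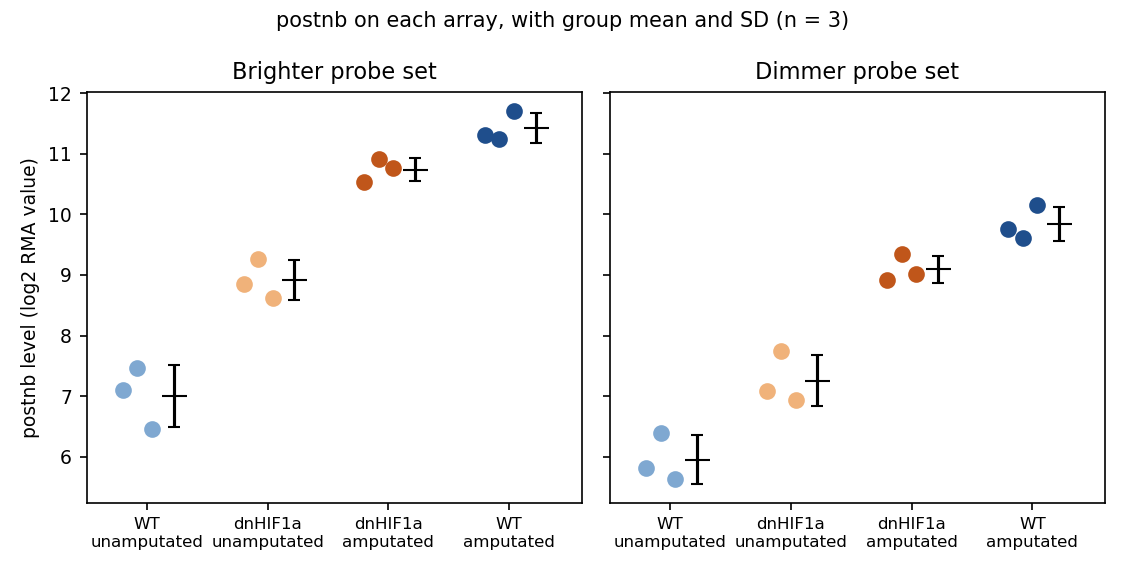
Level of postnb (log2 RMA value, vertical axis) on each of the 12 arrays for the brighter (left) and the dimmer probe set (right). Points are arrays, and bars give the group mean and SD with n = 3. On both probe sets the 4 groups follow one another without overlap, from unamputated WT at means of 7.00 and 5.95 to amputated WT at 11.42 and 9.84.

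Expressed as differences, the brighter probe set was 4.42 ± 0.23 (SE of the limma fit) higher in amputated than in unamputated WT hearts, a 21.4-fold difference. In dnHIF1a hearts the corresponding difference was 1.82 ± 0.23, or 3.54-fold. The dnHIF1a difference was therefore 2.60 ± 0.33 smaller on the log2 scale, and it came to 41.3% of that in WT. On the linear scale the dnHIF1a means were 1220 apart and the WT means 2640 apart, which is 46.4%. The dimmer probe set gave 3.89 ± 0.23 (14.9-fold) in WT and 1.83 ± 0.23 (3.56-fold) in dnHIF1a, a difference of responses of -2.06 ± 0.33.

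The smaller dnHIF1a response and the genotype difference in unamputated hearts share the same unamputated arrays. Before amputation the dnHIF1a mean was 1.91 ± 0.23 above WT on the brighter probe set, a 3.76-fold difference, and 1.31 ± 0.23 above it on the dimmer (2.47-fold). After amputation it was 0.69 ± 0.23 below WT on the brighter probe set (1.61-fold) and 0.75 ± 0.23 below on the dimmer (1.69-fold). So the genotype difference had opposite signs before and after amputation, and it was larger before. The values of postnb led to its choice, and these levels and differences are given as a description without a test.

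Among the 8793 genes measured, each read from its brightest probe set, postnb ranked 1 by the size of its increase after amputation in WT and 10 in dnHIF1a. It ranked 28 among genes higher in unamputated dnHIF1a than in unamputated WT hearts. For the difference of the responses it was the gene of rank 5 counted from the most negative. Between amputated hearts it held rank 214 counted from the lowest value, so that this contrast singled it out least. These ranks are those of the brighter probe set. Placed among the same values, the dimmer one held rank 4 in WT, 10 in dnHIF1a and 55 in unamputated hearts. Its ranks from the lowest value were 11 for the difference of the responses and 167 between amputated hearts.

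The probe sets followed each other over the 12 arrays with a Pearson correlation of 0.992, a value that mostly reflects the group means. Their deviations from the group means had a correlation of 0.917, and they had the same sign on 10 of 12 arrays. The third unamputated WT array was the lowest of its group on both (6.45 and 5.63), and the second unamputated dnHIF1a array the highest of its group (9.27 and 7.74). The distance between the probe sets was 1.05 ± 0.23 in unamputated WT hearts and 1.58 ± 0.05, 1.66 ± 0.12 and 1.65 ± 0.09 in amputated WT, unamputated dnHIF1a and amputated dnHIF1a hearts. The smaller distance in unamputated WT is the arithmetic source of the differing WT responses of 4.42 and 3.89. Which transcripts each probe set detects was not analysed here.

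The genes whose levels were most like those of postnb over the 12 arrays were led by fibrillar collagen. Likeness was measured as Pearson's r with the brighter probe set among the 570 genes whose group means spanned at least 1 log2 unit. Arrays of a group share their condition, so the coefficients carry no p-value. The closest was col1a2, a chain of type I collagen, with r = 0.992. It read 8.42, 8.27 and 7.83 in unamputated WT, 9.16, 9.38 and 9.01 in unamputated dnHIF1a, 10.62, 10.60 and 10.71 in amputated dnHIF1a and 10.90, 10.90 and 11.19 in amputated WT hearts. Like postnb, it separated all 4 groups in the same order. The other type I collagen chain, col1a1a, had r = 0.986, col6a3, a chain of the type VI collagen microfibril, 0.982, and sparc, a collagen-binding matrix protein, 0.970.

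The remaining 6 of the 10 most alike genes were anxa1a (0.988), an annexin, mmp2 (0.985), a gelatin-degrading metalloprotease, cpn1 (0.985), the catalytic subunit of carboxypeptidase N, olfml3b (0.977), an olfactomedin-like secreted protein, tfa (0.976), the iron carrier transferrin, and psd3l (0.972). mmp2 read 7.97, 8.04 and 7.88 in unamputated WT, 8.88, 8.93 and 8.65 in unamputated dnHIF1a, 9.67, 9.87 and 9.72 in amputated dnHIF1a and 10.52, 10.17 and 10.54 in amputated WT hearts. This gene too stepped up from group to group without overlap, and its rank order over the arrays equalled that of postnb (Spearman's rho = 1.0). The group mean of tfa went from 7.38 in unamputated WT to 11.24 in amputated WT hearts, a response of 3.87 against 2.33 in dnHIF1a. Within groups, the r of the deviations with those of postnb ran from -0.272 for psd3l to 0.844 for col1a2. It was 0.684 for mmp2, 0.675 for col6a3, 0.422 for col1a1a, 0.387 for sparc and 0.375 for tfa. The likeness of psd3l thus lay in the group means alone.

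At the other end, cry4, a cryptochrome of the light and clock system, had r = -0.950. The gene fi04d09 had -0.943 and rrad, a small GTPase known as an inhibitor of the cardiac calcium channel, -0.939. They were followed by gid8a with -0.905, a subunit of a ubiquitin ligase complex, and setb with -0.897, a histone chaperone. cry4 had a group mean of 7.49 in unamputated WT, 7.00 in unamputated dnHIF1a, 6.21 in amputated dnHIF1a and 6.14 in amputated WT hearts. Its group means thus ran opposite to those of postnb, with the amputated groups close to each other.

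**Figure D2:**
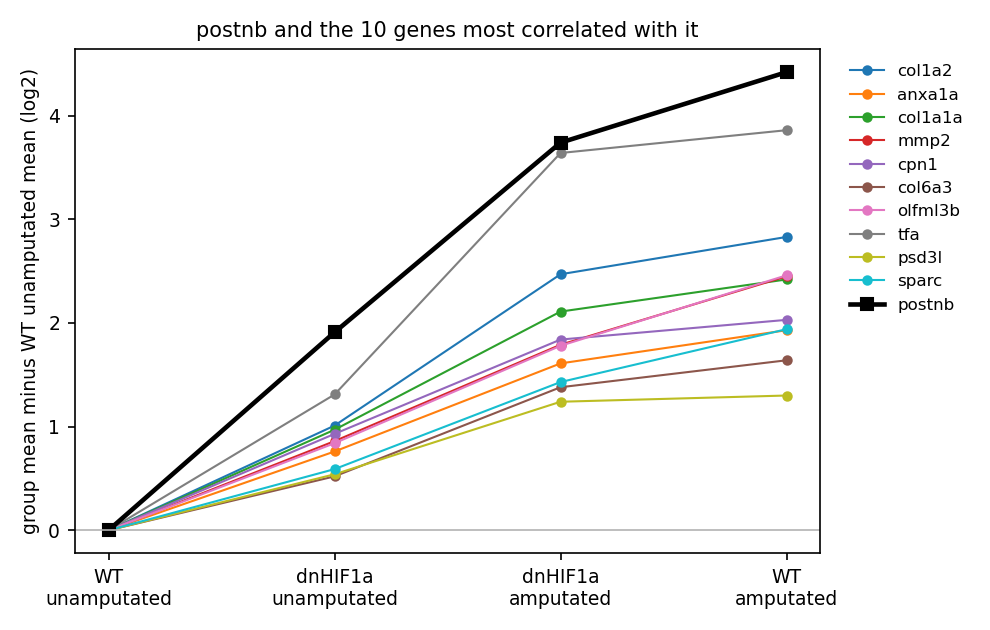
Group means of postnb (black squares, brighter probe set) and of the 10 genes with the highest Pearson r with it, each minus its own unamputated WT mean (log2, vertical axis). Every line rises from unamputated WT over unamputated and amputated dnHIF1a to amputated WT. The line of postnb ends highest, at 4.42, and that of tfa next, at 3.87.

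Of 8792 other genes, 26 (0.296%) separated the 4 groups without overlap in the order of postnb, a count made after the values were seen. They included 7 of the 10 most alike genes and 5 of the 35 measured matrix partners of periostin. The 10 were picked by likeness to postnb on the same arrays, and col1a2, col1a1a, col6a3 and sparc belong to both sets. Neither count is therefore separate support. Besides those named above, col5a2a, a chain of type V collagen, was among the 26, with group means of 7.88, 8.33, 9.45 and 10.02 in the order of postnb. So were mmp14a and mmp14b, membrane-bound matrix metalloproteases, with unamputated WT means of 5.49 and 6.46 and amputated WT means of 7.73 and 8.47.

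Of the other fasciclin-domain genes, the array measured tgfbi, a secreted matrix protein closely related to periostin. It read 5.10, 4.93 and 5.23 in unamputated WT and 5.59, 5.72 and 5.86 in amputated WT hearts. In dnHIF1a hearts it read 5.62, 5.31 and 5.25 unamputated and 5.38, 5.37 and 5.56 amputated, ranges that overlap. It rose after amputation in WT (0.64 ± 0.11, adjusted p = 0.00188, limma with Benjamini-Hochberg adjustment over all probe sets, as for every adjusted p below). In dnHIF1a its difference was 0.04 ± 0.11 (adjusted p = 0.876). The difference of the responses did not pass the test (-0.59 ± 0.16, adjusted p = 0.0803), but it did without the third unamputated WT array (-0.67, adjusted p = 0.0486). With the erythrocyte marker level as a covariate the WT call of tgfbi was lost, though its value was 0.69 (adjusted p = 0.0631).

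The genes listed as matrix partners, chiefly those of matrix proteins that periostin binds or lies beside, were mostly higher after amputation. Of the 35 measured members of this list of 79, 21 rose in WT and 0 fell, with a median difference of 0.60 against -0.05 over all probe sets. For comparison, the share of probe sets called over the whole array was 22.8%, with 11.0% higher and 11.8% lower. The largest response was that of fn1a, a fibronectin gene, which read 5.63, 6.13 and 5.38 unamputated and 9.85, 9.14 and 10.13 amputated in WT (3.99 ± 0.26, 15.9-fold, adjusted p = 6.77e-07). Its unamputated levels were far below the amputated ones in both genotypes. This is the brightest probe set of fn1a, and the probe sets disagree, since 2 dimmer ones, both with mean levels under 6, differed in WT by 0.32 (adjusted p = 0.00874) and -0.21 (adjusted p = 0.0457). The other fibronectin gene, fn1b, rose by 2.74 ± 0.18 (6.69-fold, adjusted p = 1.07e-06). col1a2 rose 7.08-fold (adjusted p = 9.89e-08), col1a1a 5.34-fold (2.42 ± 0.12, adjusted p = 9.89e-08), and col5a2a 4.41-fold (2.14 ± 0.09, adjusted p = 4.39e-08). A dimmer probe set of col5a2a, with a mean level of 4.04, rose by 0.51 (adjusted p = 0.00268). The tenascin gene tncb, of a family that mammalian periostin binds, did not pass the test (-0.28 ± 0.12, adjusted p = 0.108), but was lower without the first unamputated WT array (-0.39, adjusted p = 0.0262).

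In dnHIF1a hearts 15 of the 35 rose and 0 fell (median 0.31 against -0.01), where 9.75% of all probe sets passed (5.66% higher, 4.09% lower). fn1a read 6.14, 5.72 and 5.67 unamputated and 8.68, 8.64 and 9.23 amputated (3.01 ± 0.26, 8.04-fold, adjusted p = 2.2e-05). lamb1a, a laminin chain of basement membranes, rose by 1.32 ± 0.09 (adjusted p = 8.98e-06) and by 1.67 ± 0.09 in WT (adjusted p = 1.91e-07). For lamb1a the responses did not differ by the test (-0.35 ± 0.13, adjusted p = 0.191). The dnHIF1a responses of col1a2, col1a1a and col5a2a were 1.46 ± 0.14, 1.15 ± 0.12 and 1.12 ± 0.09 (adjusted p = 5.97e-05, 9.95e-05 and 1.55e-05). The dimmer probe set of col5a2a read 0.52 (adjusted p = 0.00499).

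A difference between the responses was called for 6 of the 35 partners, each with the smaller response in dnHIF1a, beside 2.24% of all probe sets (0.884% higher, 1.35% lower). The list median was -0.30 against 0.04. These were thbs4b (-1.64 ± 0.22, adjusted p = 0.00433), col1a2 (-1.36 ± 0.20, adjusted p = 0.00779), col1a1a (-1.27 ± 0.17, adjusted p = 0.00433), sparc (-1.10 ± 0.18, adjusted p = 0.0114), col5a2a (-1.02 ± 0.13, adjusted p = 0.00342) and col6a3 (-0.78 ± 0.17, adjusted p = 0.0338). The col6a3 call was lost without any of 8 arrays (adjusted p up to 0.0908). The probe sets of col5a2a disagree here, since the dimmer probe set read 0.01 (adjusted p = 0.981). The thrombospondin gene thbs4b, whose protein binds collagen, read 6.89, 7.05 and 7.06 in amputated WT hearts. On the other 9 arrays it lay between 4.74 and 5.34. In dnHIF1a hearts thbs4b read 4.86, 4.78 and 4.81 unamputated and 5.34, 4.74 and 5.29 amputated. This response of 0.31 was not called over all arrays, but it was with 1 array left out (adjusted p = 0.0376). The difference was -0.99 ± 0.36 for fn1a (adjusted p = 0.179) and -0.94 ± 0.26 for fn1b (adjusted p = 0.0869), which did not pass. The fn1b difference passed without the second amputated or the first unamputated WT array (adjusted p = 0.0402 and 0.0269). With the erythrocyte marker level as a covariate 0 of the 6 differences were called. The values were then -0.92 for col5a2a (adjusted p = 0.0564), -1.50 for thbs4b (adjusted p = 0.0584) and -1.14 for col1a1a (adjusted p = 0.0622). This marker level itself was higher after amputation by 0.86 in WT and 0.11 in dnHIF1a, so the covariate overlaps with the groups.

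Before amputation, 8 of the 35 partners were higher and 2 lower in dnHIF1a than in WT (median 0.11 against -0.02), beside 11.4% of all probe sets (5.82% higher, 5.56% lower). col1a2 was higher by 1.01 ± 0.14 (2.01-fold, adjusted p = 0.000609), col1a1a by 0.97 ± 0.12 (adjusted p = 0.000236) and col5a2a by 0.45 ± 0.09 (adjusted p = 0.00579). The dimmer probe set of col5a2a was not called (0.15, adjusted p = 0.371). The laminin chain gene lama5 was lower (-0.69 ± 0.11, adjusted p = 0.00145), as was col12a1b, a fibril-associated collagen (-0.43 ± 0.08, adjusted p = 0.00486). In fn1a the unamputated groups overlapped (0.13 ± 0.26, adjusted p = 0.816), unlike in postnb. The collagens here, which move with postnb, are also members of the epicardium and fibroblast marker list described below.

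After amputation, 1 partner was higher and 7 were lower in dnHIF1a than in WT (median -0.14 against 0.02), beside 12.9% of all probe sets (6.15% higher, 6.75% lower). Without the first amputated dnHIF1a array, or without the first amputated WT array, 5 were called in all. The lower ones were led by thbs4b (-1.88 ± 0.15, adjusted p = 1.39e-05), lama5 (-0.72 ± 0.11, adjusted p = 0.00125) and col5a2a (-0.57 ± 0.09, adjusted p = 0.00155). sparc (-0.51 ± 0.13, adjusted p = 0.0201) and fn1a (-0.86 ± 0.26, adjusted p = 0.0451) were among them. The sparc call was lost without any of 3 arrays (adjusted p up to 0.0847). That of fn1a was lost without any of 6 (adjusted p up to 0.163), with the replicate number as a block (adjusted p = 0.0685) and averaged over its probe sets (-0.30, adjusted p = 0.0798). The higher one was the laminin chain gene lama4 (0.37 ± 0.09, adjusted p = 0.0139), whose call was lost without either of the same arrays (adjusted p = 0.0632 and 0.0604). It was also lost averaged over the probe sets of lama4 (0.18, adjusted p = 0.0733) and with the erythrocyte covariate (0.34, adjusted p = 0.0994). The dimmer probe set of lama4 was not called (adjusted p = 0.985). The dimmer probe set of col5a2a read 0.16 in this contrast (adjusted p = 0.314). Averaged over its probe sets col5a2a was not called (-0.20, adjusted p = 0.0979). In the same contrast col1a1a read -0.30 and col1a2 -0.35. Dimmer probe sets of these 2 genes read -0.55 (adjusted p = 0.0307) and -0.71 (adjusted p = 0.0113).

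**Figure D3:**
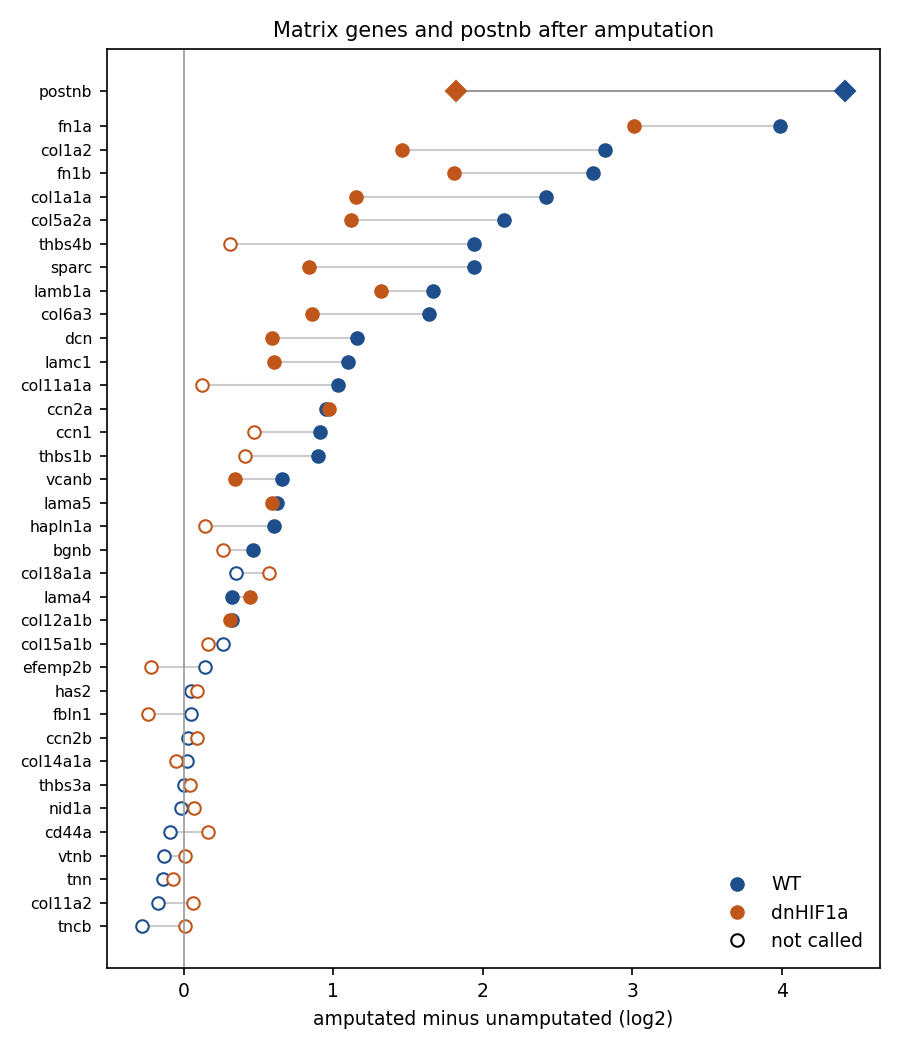
Difference between amputated and unamputated hearts (log2, horizontal axis) for postnb (diamonds) and the 35 measured matrix partners, in WT (blue) and dnHIF1a (orange). Filled circles were called at an adjusted p under 0.05 and open circles were not, and postnb was not tested. The blue points reach 4.42 for postnb and 3.99 for fn1a, and the orange ones 1.82 and 3.01.

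Enzymes and chaperones that mature collagen and crosslink the matrix also changed. Of 15 measured of 41, 7 rose and 1 fell in WT (53.3%, beside 22.8% of all probe sets), and 9 rose and 0 fell in dnHIF1a (60.0% beside 9.75%). With an array left out, 7 to 8 were called in WT and 3 to 9 in dnHIF1a. The list medians were 0.44 and 0.43, against -0.05 and -0.01 over all probe sets. pcolce2b, an enhancer of procollagen cleavage, read 6.21, 6.24 and 6.03 unamputated and 8.78, 8.35 and 8.97 amputated in WT (2.54 ± 0.16, 5.82-fold, adjusted p = 5.33e-07). In dnHIF1a it went from 6.33, 6.20 and 6.76 to 8.37, 8.27 and 8.43 (1.93 ± 0.16, adjusted p = 1.76e-05). Every amputated array thus exceeded every unamputated one. The crosslinking lysyl oxidase gene loxl2b rose by 1.44 ± 0.15 in WT (adjusted p = 4.98e-05) and by 0.67 ± 0.15 in dnHIF1a (adjusted p = 0.0163), the latter lost without any of 4 arrays (adjusted p up to 0.0635). The collagen chaperone gene serpinh1b rose in both, by 1.08 ± 0.23 (adjusted p = 0.00582) and 1.22 ± 0.23 (adjusted p = 0.00577), and its WT call was lost with the erythrocyte covariate (adjusted p = 0.367). The member that fell in WT was plod3, a collagen lysyl hydroxylase (-0.34 ± 0.11, adjusted p = 0.04), but leaving out any of 10 arrays ended the call (adjusted p up to 0.14).

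Transglutaminase 2, which crosslinks fibronectin and other matrix proteins, is encoded by tgm2b and resembled postnb after amputation but not before it. It read 7.97, 8.02 and 7.67 in unamputated WT and 8.03, 7.73 and 7.69 in unamputated dnHIF1a hearts, ranges that overlap. After amputation it read 9.94, 9.48 and 10.16 in WT and 8.37, 8.66 and 8.76 in dnHIF1a, with no overlap. The responses were 1.97 ± 0.17 (adjusted p = 7.15e-06) and 0.78 ± 0.17 (adjusted p = 0.0113). Without the third amputated dnHIF1a array the latter was not called (0.70, adjusted p = 0.0509). Their difference was the one of this list that was called (-1.19 ± 0.24, adjusted p = 0.0235), 6.67% of the list beside 2.24% of all probe sets. That call was lost without any of 4 arrays (adjusted p 0.054 to 0.0648) and with the erythrocyte covariate (-0.89, adjusted p = 0.217).

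Between genotypes, 1 of the 15 was higher and 2 were lower in unamputated dnHIF1a hearts (20.0% beside 11.4% of all probe sets). The lower ones were the prolyl 4-hydroxylase subunit genes p4ha1b (-1.10 ± 0.18, adjusted p = 0.00163) and p4ha2 (-0.88 ± 0.08, adjusted p = 2.04e-05), whose enzyme stabilises the collagen triple helix. The mammalian counterparts of both are known as hypoxia-inducible. So these genes had the opposite sign to postnb, col1a1a and col1a2 in the same hearts. The higher one was the collagen-folding isomerase gene ppib (0.38 ± 0.09, adjusted p = 0.0202), whose call was lost without any of 3 arrays (adjusted p up to 0.0799). After amputation 6 were lower and 0 higher in dnHIF1a (40.0% beside 12.9%), led by tgm2b (-1.26 ± 0.17, adjusted p = 0.000466), p4ha2 (-0.42 ± 0.08, adjusted p = 0.00475) and crtap (-0.41 ± 0.10, adjusted p = 0.014), which encodes a part of the collagen prolyl 3-hydroxylation complex. The crtap call was lost without the second amputated dnHIF1a or the third amputated WT array (adjusted p = 0.0523 and 0.0579). Without the first amputated dnHIF1a array, or without the third amputated WT array, 3 genes were called in all.

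Of the genes of integrins and of the adhesion proteins behind them, 13 were measured of 43. After amputation 1 was called in WT (7.69%, beside 22.8% of all probe sets) and 2 in dnHIF1a (15.4% beside 9.75%), all higher. The list medians were 0.01 and 0.14, against -0.05 and -0.01 over all probe sets. The integrin subunit gene itga5, part of the fibronectin receptor, read 5.69, 5.57 and 5.57 unamputated and 5.97, 5.87 and 5.84 amputated in WT (0.28 ± 0.12, adjusted p = 0.108). In dnHIF1a it read 5.49, 5.06 and 5.46 unamputated and 6.37, 6.71 and 6.71 amputated (1.26 ± 0.12, 2.39-fold, adjusted p = 5.12e-05). Its response was therefore the larger one in dnHIF1a, the reverse of postnb (difference 0.98 ± 0.17, adjusted p = 0.0144), though not called with the erythrocyte covariate (0.89, adjusted p = 0.13). It was the 1 member of the 13 whose responses differed (7.69% beside 2.24%). The subunit gene itgb5, part of a mammalian periostin receptor, had differences of 0.30 ± 0.13 in WT (adjusted p = 0.11) and 0.02 ± 0.13 in dnHIF1a (adjusted p = 0.96). The WT value passed with the replicate number as a block (adjusted p = 0.0253) and without the second unamputated WT array (0.42, adjusted p = 0.0316).

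In the same list, tln2a, a talin that links integrins to actin, rose in WT (0.64 ± 0.18, adjusted p = 0.0256), but leaving out any of 4 arrays ended the call (adjusted p 0.0593 to 0.0963). The dnHIF1a response of parvaa, an actin-binding partner of integrin-linked kinase, was 0.42 ± 0.12 (adjusted p = 0.0387), and it was lost without any of 8 arrays (adjusted p up to 0.151) and with the replicate number as a block (adjusted p = 0.0558). Between genotypes 2 were higher and 0 lower in unamputated dnHIF1a hearts (15.4%, beside 11.4% of all probe sets). These were parvaa (0.83 ± 0.12, adjusted p = 0.000571) and the focal adhesion adaptor gene pxna (0.80 ± 0.13, adjusted p = 0.00138). In amputated hearts 4 were higher and 0 lower (30.8% beside 12.9%), again with parvaa (1.09 ± 0.12, adjusted p = 8.79e-05) and pxna (0.64 ± 0.13, adjusted p = 0.00594), and with itga5 (0.70 ± 0.12, adjusted p = 0.0025). For parvaa and pxna the genotype difference thus had the same sign before and after amputation, unlike that of postnb.

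TGF-beta and BMP pathway genes showed no common direction. Of 32 measured of 64, 5 rose and 5 fell in WT (31.2%, beside 22.8% of all probe sets), and 2 rose and 0 fell in dnHIF1a (6.25% beside 9.75%). The list medians were 0.02 and 0.05, against -0.05 and -0.01. The shares called were 3.12% for the difference of responses (2.24% over the array), 12.5% between unamputated (11.4%) and 9.38% between amputated hearts (12.9%), all near those of the array. The ligand gene tgfb1a rose in WT (0.55 ± 0.09, adjusted p = 0.00105), as did the receptor gene acvrl1 (0.82 ± 0.14, adjusted p = 0.00147). The largest rise was that of inhbb, which encodes an activin chain (1.65 ± 0.33, 3.14-fold, adjusted p = 0.00377). Those that fell included the myostatin gene mstnb (-0.71 ± 0.09, adjusted p = 0.000194), the BMP target gene id2b (-1.01 ± 0.19, adjusted p = 0.00279) and the activin receptor gene acvr1ba (-0.35 ± 0.07, adjusted p = 0.00484). With the erythrocyte covariate 5 genes were called in WT. The calls of tgfb1a (0.49, adjusted p = 0.0939), acvrl1 (0.64, adjusted p = 0.138) and acvr1ba (-0.44, adjusted p = 0.0654) were then lost.

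In dnHIF1a the called members were id2a (0.82 ± 0.16, adjusted p = 0.00726) and inhbb (1.13 ± 0.33, adjusted p = 0.0497), the latter lost without any of 8 arrays (adjusted p up to 0.182) and with the block (adjusted p = 0.0794). mstnb was the one member whose responses differed (0.63 ± 0.13, adjusted p = 0.0235), but leaving out any of 4 arrays ended the call (adjusted p 0.0509 to 0.0646) and with the erythrocyte covariate (adjusted p = 0.175). In unamputated dnHIF1a hearts tgfb1a (0.36 ± 0.09, adjusted p = 0.0196) and acvrl1 (0.60 ± 0.14, adjusted p = 0.0149) were higher, in the direction of postnb. The former call was lost without any of 3 arrays (adjusted p up to 0.0667) and the latter without any of 2 (adjusted p up to 0.0676). Lower there were mstnb (-0.59 ± 0.09, adjusted p = 0.00111) and smad3b (-0.79 ± 0.08, adjusted p = 6.08e-05), a gene for an effector of TGF-beta and activin receptors. In amputated hearts smad3b (-0.49 ± 0.08, adjusted p = 0.0023) and the BMP receptor gene bmpr1aa (-0.41 ± 0.09, adjusted p = 0.00802) were lower, and id2b was higher (0.74 ± 0.19, adjusted p = 0.0251), the last lost without any of 5 arrays (adjusted p up to 0.0922). The bmpr1aa call was lost with the erythrocyte covariate (-0.36, adjusted p = 0.0789). Dimmer probe sets of bmpr1aa read -0.51 (adjusted p = 0.00509) and -0.03 (adjusted p = 0.903).

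Transcription factors and hypoxia genes taken as possible regulators of periostin formed a list of 37, of which 24 were measured. Their action on postnb was not tested, and some, such as prrx1a, wt1a and tbx18, are also epicardium and fibroblast markers here. After amputation 8 of the 24 rose in WT (33.3%, beside 11.0% of all probe sets called higher) and 7 in dnHIF1a (29.2% beside 5.66%), and 0 fell in either. The list medians were 0.17 and 0.07, against -0.05 and -0.01. Both genotypes shared prrx1a, a mesenchymal homeobox factor, which rose by 1.06 ± 0.11 in WT (adjusted p = 4.18e-05) and 0.56 ± 0.11 in dnHIF1a (adjusted p = 0.00675). They also shared junba and fosl2, subunits of the AP-1 complex. junba rose by 1.30 ± 0.19 (adjusted p = 0.000517) and 1.53 ± 0.19 (adjusted p = 0.000361). fosl2 rose by 1.22 ± 0.31 (adjusted p = 0.0139) and 1.99 ± 0.31 (adjusted p = 0.00155). The WT call of fosl2 was lost without the second or the third unamputated WT array (adjusted p = 0.0575 and 0.053). It was also lost with the erythrocyte covariate, though the value was then 1.54 (adjusted p = 0.114). For both AP-1 genes the dnHIF1a value was the larger one, though neither difference of responses was called.

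The zinc-finger gene snai2 read 5.27, 4.73 and 4.74 in unamputated and 5.90, 5.86 and 6.34 in amputated WT hearts (1.12 ± 0.20, adjusted p = 0.00162). In dnHIF1a it read 5.88, 5.26 and 5.34 and then 6.43, 6.45 and 6.06 (0.82 ± 0.20, adjusted p = 0.0197). That call was lost without any of 4 arrays (adjusted p up to 0.0818) and when its 3 probe sets were averaged (adjusted p = 0.0951). In WT the dimmer probe sets of snai2 read 0.01 (adjusted p = 0.94) and 0.25 (adjusted p = 0.0726). Its relative snai1a rose by 0.42 ± 0.11 (adjusted p = 0.0143) and 0.69 ± 0.11 (adjusted p = 0.00159). The WT call of snai1a was lost without the third amputated WT array (adjusted p = 0.0552). mrtfab, a coactivator of serum response factor, rose by 0.71 ± 0.09 (adjusted p = 0.000181) and 0.58 ± 0.09 (adjusted p = 0.00131). yap1, a coactivator of the Hippo pathway, rose by 0.30 ± 0.10 (adjusted p = 0.042) and 0.35 ± 0.10 (adjusted p = 0.0434). Both yap1 calls were lost with the block (adjusted p = 0.0559 and 0.0609), and they were lost without any of 8 and of 7 arrays. A dimmer probe set of yap1 read 0.04 in WT (adjusted p = 0.768) and 0.09 in dnHIF1a (adjusted p = 0.586).

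The eighth gene to rise in WT was runx2a, a factor of bone and connective tissue (1.45 ± 0.31, adjusted p = 0.00556). Its dnHIF1a value of 1.06 ± 0.31 missed the threshold (adjusted p = 0.0503) and passed it with the block (adjusted p = 0.0414). With the erythrocyte covariate the WT call was lost (0.97, adjusted p = 0.292), and a dimmer probe set of runx2a read -0.24 (adjusted p = 0.0929). For 0 of the 24 was the difference of the responses called. Its values ranged from -0.53 for jun to 0.77 for fosl2. Without 1 array it was called for jun, leaving out the third unamputated dnHIF1a array (-0.71, adjusted p = 0.0226), and for the prolyl hydroxylase gene egln3, leaving out the second unamputated WT array (1.03, adjusted p = 0.0218).

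In unamputated hearts, where dnHIF1a exceeded WT in postnb, 1 of the 24 was higher in dnHIF1a and 0 were lower (4.17%, beside 11.4% of all probe sets). It was zeb2a, a factor of the mesenchymal transition (0.28 ± 0.08, adjusted p = 0.0347), but leaving out any of 5 arrays ended the call (adjusted p up to 0.122). A dimmer probe set of zeb2a read -0.06 (adjusted p = 0.764), and averaged over its probe sets zeb2a was not called (0.11, adjusted p = 0.361). With the block, or without the first unamputated dnHIF1a array, the HIF-2 alpha gene epas1b was called too (0.31 and 0.43, adjusted p = 0.0492 and 0.0211). Each without 1 array, snai1a (0.36, adjusted p = 0.0338) and snai2 (0.76, adjusted p = 0.0269) were higher and junba lower (-0.81, adjusted p = 0.00478). In amputated hearts snai1a (0.50 ± 0.11, adjusted p = 0.00976) and zeb2a (0.30 ± 0.08, adjusted p = 0.0211) were higher in dnHIF1a. The former was lost with the erythrocyte covariate (0.37, adjusted p = 0.114). The latter was lost with it (0.32, adjusted p = 0.0885), averaged over its probe sets (0.21, adjusted p = 0.0583) and without any of 4 arrays (adjusted p up to 0.089). The other HIF-2 alpha gene epas1a (-0.42 ± 0.09, adjusted p = 0.0074) and jun (-0.65 ± 0.14, adjusted p = 0.00749) were lower. These 4 calls were 16.7% of the list, beside 12.9% of all probe sets. Dimmer probe sets were not called there. Those of epas1a read -0.24 (adjusted p = 0.0826) and 0.05 (adjusted p = 0.661), and that of jun -0.46 (adjusted p = 0.0873). hif1ab was not called in any of the 5 comparisons (differences from -0.27 to 0.33). Without the second unamputated WT array its WT response was called (-0.48, adjusted p = 0.0496). twist1a read near 4 in every group, with group means of 3.85 to 4.06, and it was not called in any comparison, nor were wt1a and tbx18, factors of the epicardium. Both twist1a and wt1a lay below the lower quartile of every array (4.19 to 4.28), so they may not have been detected. The further members prrx1b, runx2b, snai1b, twist3, srfa, klf4 and arnt2 passed in no comparison over all 12 arrays. Without 1 array the WT responses of runx2b (-0.24, adjusted p = 0.0323), srfa (-0.41, adjusted p = 0.0291), klf4 (adjusted p = 0.0271 and 0.0403) and arnt2 (adjusted p = 0.0311 and 0.0325) passed. So did the dnHIF1a response of arnt2 (-0.36, adjusted p = 0.0442) and the amputated genotype difference of klf4 (adjusted p = 0.0428 and 0.0303). Without the second unamputated WT array the WT response of egln3 passed too (-0.88, adjusted p = 0.00121). Its amputated genotype difference (0.67, adjusted p = 0.0687) passed without the first or the second unamputated WT array (adjusted p = 0.0158 and 0.00384). It also passed with weights per array (adjusted p = 0.0202). The amputated genotype difference of fosl2 (0.76, adjusted p = 0.135) passed without the first unamputated WT array (adjusted p = 0.00886).

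Markers of epicardium and fibroblasts, cells known to transcribe postnb, were higher in the same groups. The 26 measured epicardium and fibroblast markers, averaged on each array, gave 7.67 to 7.95 in unamputated WT and 8.16 to 8.19 in unamputated dnHIF1a hearts. They gave 8.92 to 9.08 in amputated dnHIF1a and 8.92 to 9.23 in amputated WT hearts. The list mean was thus ordered like postnb except that the amputated groups overlapped. It was higher after amputation by 1.30 in WT and by 0.83 in dnHIF1a, against 4.42 and 1.82 for postnb. Over the 12 arrays its r with postnb was 0.970, and 0.437 for deviations from group means. The epicardial factor genes wt1a, at group means of 3.87 to 4.03, and tbx18, at 5.73 to 5.98, did not move with it. However, wt1a lay below the lower quartile of every array (4.19 to 4.28). At such levels an unchanged and an undetected transcript cannot be told apart. In whole hearts, fewer cells of a type and less RNA per cell cannot be told apart.

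Of these 26 markers, 17 rose and 1 fell in WT (69.2%, beside 22.8% of all probe sets), and 15 rose and 0 fell in dnHIF1a (57.7% beside 9.75%). In unamputated hearts 11 were higher and 0 lower in dnHIF1a than in WT (42.3% beside 11.4%), and the list mean differed by 0.39 where postnb differed by 1.91. In amputated hearts 2 were higher and 7 lower (34.6% beside 12.9%), and the list mean differed by -0.09 where postnb differed by -0.69. The difference of the responses was called for 6 (23.1% beside 2.24%), all with the smaller response in dnHIF1a. Since collagen, fibronectin and factor genes of the lists above belong to this list as well, it is not a separate measure of cell number, and its part in the levels of postnb was not tested.

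The mean level of the markers of smooth muscle and of the bulbus arteriosus, the outflow vessel of the fish heart, separated the genotypes in both states. The mean of the 7 measured markers was 6.91 to 7.31 in unamputated WT, 7.63 to 7.86 in amputated WT, 7.97 to 8.31 in unamputated dnHIF1a and 8.41 to 8.47 in amputated dnHIF1a hearts. Both dnHIF1a groups stood above both WT groups. In unamputated hearts 5 of the 7 were higher in dnHIF1a and 0 lower (71.4%, beside 11.4% of all probe sets). rgs5a, a marker of vessel wall cells, read 6.64, 6.04 and 5.56 in WT and 8.65, 8.23 and 8.40 in dnHIF1a (2.35 ± 0.22, adjusted p = 2.16e-05). The smooth muscle actin gene acta2 read 7.95, 7.31 and 7.60 in WT and 9.02, 9.02 and 10.03 in dnHIF1a (1.74 ± 0.23, adjusted p = 0.000374). The others were tagln (1.19), mylka (1.15) and myl9b (1.13), genes of the smooth muscle cytoskeleton and its myosin, while smtnb read -0.29 and desmb -0.02. In amputated hearts 3 were higher, rgs5a (2.17), acta2 (1.33) and mylka (0.66), and 1 was lower, the smoothelin gene smtnb (-0.43, adjusted p = 0.0145), which is 57.1% beside 12.9%. The mylka call there was lost without any of 6 arrays (adjusted p up to 0.114) and that of smtnb without any of 2 (adjusted p up to 0.0686). This list mean was 1.04 higher in unamputated dnHIF1a hearts, where postnb was 1.91 higher. In amputated dnHIF1a hearts it was 0.71 higher and postnb 0.69 lower, so the sign of postnb differed from that of the list there. Its part in the higher unamputated dnHIF1a level of postnb was not tested.

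**Figure D4:**
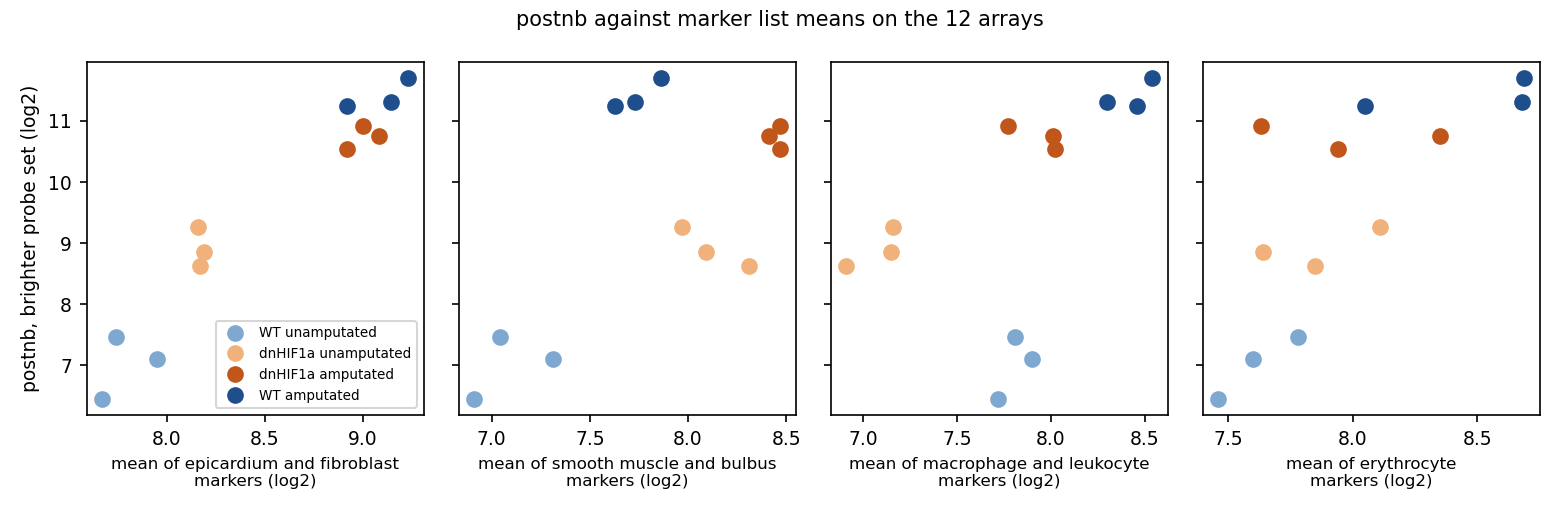
Level of postnb (log2, brighter probe set, vertical axis) against the mean log2 level of 4 marker lists (horizontal axes) on the 12 arrays, with 1 point per array. Along the epicardium and fibroblast axis the group means follow in the order of postnb (r = 0.970), but the amputated groups overlap. Along the smooth muscle and bulbus axis both dnHIF1a groups lie to the right of both WT groups (r = 0.630).

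Blood and immune markers also moved with the groups. Erythrocyte markers (23 measured) averaged 7.46 to 7.78 in unamputated WT and 8.05 to 8.69 in amputated WT hearts, a difference of 0.86, and 13 rose and 2 fell (65.2%, beside 22.8% of all probe sets). In dnHIF1a hearts they averaged 7.64 to 8.11 unamputated and 7.63 to 8.35 amputated, a difference of 0.11. With this list mean as a covariate, the differences of postnb were 16.0-fold in WT and 3.41-fold in dnHIF1a, and the log2 difference of its responses was -2.23. The log2 genotype differences of postnb were then 1.79 in unamputated and -0.44 in amputated hearts. Macrophage and leukocyte markers (19 measured) were higher after amputation by 0.62 in WT and 0.86 in dnHIF1a, and they were lower in dnHIF1a by 0.74 before and 0.50 after amputation. In unamputated dnHIF1a hearts 12 of these 19 were lower and 1 higher (68.4% beside 11.4%), the opposite direction to postnb.

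For the remaining lists r with postnb over the arrays was 0.332 for cardiomyocyte, 0.529 for valve and -0.578 for endothelium and endocardium markers. The 16 cardiomyocyte markers averaged 10.47 to 10.56 in unamputated WT and 10.50 to 10.56 in amputated WT hearts. In dnHIF1a they averaged 10.57 to 10.69 and 10.65 to 10.85. The median difference between dnHIF1a and WT over this list was 0.02 in unamputated and 0.18 in amputated hearts. In unamputated hearts 2 were called higher, the cardiac myosin gene myh7 (2.04) and the calcium pump gene atp2a2a (0.41), and 2 lower, tnnc1a (-0.47) and ttn.2 (-0.27), the last lost without any of 11 arrays (adjusted p up to 0.182). The other 12 of the 16 were not called there, where 11.4% of all probe sets were called. In amputated hearts 3 were called higher, with myh7 at 1.40, and 0 lower (18.8%, beside 12.9% of all probe sets). The 11 endothelium and endocardium markers had group means of 6.97 to 7.05 and the 8 valve markers 5.53 to 5.78. Within the endothelium list, 1 member was called higher and 2 lower in unamputated dnHIF1a than WT hearts (27.3% beside 11.4%). In amputated hearts 2 were higher and 3 lower (45.5% beside 12.9%), with differences from -1.0 to 1.04. Of the valve markers 1 was higher in unamputated and 2 in amputated dnHIF1a hearts, and 0 lower. Single arrays left out ended the unamputated calls of erg, tie1 and tbx2b and the amputated calls of erg, fli1rs, klf2a and tal1. The 6 neutrophil markers averaged 7.86 in unamputated WT and 7.16 in unamputated dnHIF1a hearts, with an r of 0.0546 with postnb. The part of any of these lists in the levels of postnb was not tested.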

How the data were processed

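Each deposited value is a log2 expression level that the authors obtained with RMA, analysed here without further normalization. RMA and limma are named, with no version, in the submitters' processing notes. Per the labels, RNA was extracted with Trizol, and 200 ng was labelled with biotin. Of 15617 probe sets, 115 controls were left out. The platform table gives 10795 of the remaining 15502 a single gene, 135 several and 4572 none. Entrez identifiers linked 10711 of them to the RefSeq table of GRCz12tu, with 84 unmatched and 1 symbol updated. A gene is read from its probe set with the highest mean, which gave 8793 genes. The number of arrays limits the precision.

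Group means were fitted with limma over the 12 arrays (R 4.3.3, limma 3.58.1), a procedure tested on simulated data. The fit had 8 residual and 4.46 prior degrees of freedom. Two-sided moderated p-values were adjusted within each of 5 comparisons over the whole array (Benjamini-Hochberg), and those under 0.05 were called. Background shares are over probe sets. Replicate numbers come from the sample titles. Correlations of deviations between arrays of the same number ran from -0.191 to 0.133, so the numbers were not taken as pairs. At most 2.87% of values were identical between 2 arrays.

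The gene, the gene lists and the alternatives were chosen with earlier results of these data known. Named are the probe sets of postnb, the 10 genes of highest and the 5 of lowest r with it, all fasciclin and periostin-regulator genes, and up to 3 called genes per direction, list and comparison with the smallest adjusted p. Symbols with a clone prefix such as si:, zgc: or LOC were left out of the genes chosen by r. The clone-like symbol fi04d09 has no such prefix and was kept. Other genes named (among them fn1b, tncb, itgb5, mmp14a, mmp14b and the smooth muscle markers) were chosen after their values were seen, as were some further comparisons of rule-named genes. The alternatives were repeated quantile normalization, median centring, leaving out dim probe sets, a robust prior with a trend, weights per array, the replicate block, only the groups compared, averaged probe sets, an erythrocyte covariate, and each array left out. Probe sequences and genome positions were not analysed here.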

Additional observations from a re-analysis of the deposited data

Results flagged for a closer look

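The values below were singled out because the response to amputation differed between dnHIF1a and WT in limma's test of that difference, for genes of the lists around postnb. The response was smaller in dnHIF1a for the matrix partner genes thbs4b (-1.64), col1a2 (-1.36), col1a1a (-1.27), sparc (-1.10), col5a2a (-1.02) and col6a3 (-0.78), and for tgm2b (-1.19), which encodes a crosslinking enzyme. It was larger in dnHIF1a for the integrin subunit gene itga5 (0.98). For mstnb (0.63) the fall seen in WT was not called in dnHIF1a. All 9 values are log2 differences of responses with 3 arrays per group, and 2.24% of all probe sets were called in this test. The dimmer probe set of col5a2a read 0.01 in the same test (adjusted p = 0.981). Groups of 3 arrays are too small to look for single arrays that stand apart.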

How the results depend on the processing

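The differences of postnb kept their sign under every alternative evaluated for them. Weights per array, the trended prior, leaving out dim probe sets and only the groups compared were not evaluated for postnb. The dimmer probe set gave 3.89 in WT, -2.06 for the difference of responses and 1.31 in unamputated hearts. Leaving out each array gave 4.14 to 4.65 in WT, 1.68 to 2.00 in dnHIF1a, -2.83 to -2.32 between them, 1.63 to 2.14 unamputated and -0.77 to -0.54 amputated. The replicate block left these 5 values at 4.42, 1.82, -2.60, 1.91 and -0.69. With the erythrocyte covariate the counts of called genes were, for matrix partners, 0 (from 6) for the difference and 4 (from 8) between amputated hearts. For processing genes they were 3 (from 8) in WT and 0 (from 1) for the difference. For receptors they were 0 (from 1) in WT, 1 (from 2) in dnHIF1a and 0 (from 1) for the difference, and for TGF-beta genes 5 (from 10) in WT and 0 (from 1) for the difference. The block and the repeated quantile normalization each gave 2 for the processing difference (from 1) and 2 for receptors in WT (from 1). The dnHIF1a count of TGF-beta genes (2) was 1 under both of these, median centring, the trended prior and averaged probe sets, and 4 with only the groups compared. The dnHIF1a count of receptors (2) was 1 under the block and with only the groups compared. Of 182 results of genes named by rule, the block changed the calls of parvaa, inhbb, yap1, runx2a and epas1b alone. Of the other genes in the text it ended the amputated call of fn1a and gained itgb5 in WT, mylka in dnHIF1a (0.59, adjusted p = 0.0411) and the difference of p4ha2 (0.45, adjusted p = 0.0354). By Spearman's rho 4 of the 10 most alike genes remained with ties broken by name, or 6 counting those among 6 genes tied at rank 9. By Pearson's r, 8 to 10 of the 10 remained among the most alike with an array left out. Leaving out each array gave matrix partners 5 to 11 between amputated hearts. It gave processing genes 3 to 9 in dnHIF1a (3 without the third amputated dnHIF1a array), 0 to 2 for the difference and 3 to 8 between amputated hearts. It gave receptors 0 to 1 in WT and 1 to 2 in dnHIF1a. It gave TGF-beta genes 1 to 3 in dnHIF1a, 0 to 3 for the difference and 2 to 5 between unamputated hearts. The cause of these shifts was not tested. The count of 26 genes in the order of postnb was 25 after median centring and 28 to 37 with an array left out, both tried after the values were seen. Of 3776 alternative values of the genes named by rule, 3609 stayed on their side of the threshold, 130 lost and 37 gained a call, and 0 changed sign as called values. With only the groups compared the difference of responses has no value. Levels near the bottom of the scale have no measure of background.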
